A study of Mus musculus with 6 samples.

Results

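Cdkn1a, 7 further targets of p53 and the related inhibitor gene Cdkn1b, which is not a classical p53 target, were followed. The 9 members, Cdkn1a, Cdkn1b, Mdm2, Ccng1, Zmat3, Sesn1, Trp53inp1, Phlda3 and Bax, were measured in the cell classes of the hippocampus of old mice after an inhaled anaesthetic. The 9 genes were chosen by symbol among 31253 measured genes because Cdkn1a had been seen higher with sevoflurane in neurons and in endothelial cells, and the question was whether the other members moved with it. The Cdkn1a values of those 2 classes therefore chose the gene and are given as a description, without a test. Hippocampi came from 6 old mice in 2 groups. In the Sevoflurane group (3 libraries) the animals breathed the general anaesthetic sevoflurane at 2% for 6 h, and in the Control group (3 libraries) they breathed air. In both groups tissue was taken 24 h later, digested with collagenase II, frozen as a cell suspension in liquid nitrogen and thawed before droplet capture. Strain and exact age are not given in the sources used here. The labels give 6 mice but do not tie each library to 1 animal, so p-values measure the spread between libraries, part of which may be technical.

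p53 is a transcription factor that is stabilised after DNA damage and other stresses and switches on genes that halt the cell cycle, repair DNA or start apoptosis. It binds pairs of a short palindromic half-site. Cdkn1a encodes p21, an inhibitor of cyclin-dependent kinases that arrests the cell cycle and is the best known p53 target, although glucocorticoids and other signals can also induce it without p53. Mdm2 encodes the ubiquitin ligase that removes p53 and is itself a p53 target. Ccng1 (cyclin G1), Zmat3 (an RNA-binding zinc finger protein), Sesn1 (sestrin 1, which restrains the growth kinase mTORC1), Trp53inp1 (a nuclear protein linked to p53 activity and autophagy), Phlda3 (a repressor of Akt signalling) and Bax (a pore-forming killer protein of mitochondria) are further targets. Cdkn1b encodes p27, a close relative of p21 that stands here as a comparison and is counted among the 8 members other than Cdkn1a.

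The promoters of the members that the results turn on are shown with their p53 half-sites, since a half-site is what a p53 target would be asked for first. RefSeq (build GRCm38.p6) gave promoters for 7 of the 9 members, 9 start sites in all. The 250 bases before the start were searched for the p53 half-site, which reads the same on both strands. At least 1 match lay in 5 of the 9 member promoters, and 7.13% of all 32851 mouse promoters of the same length held one. Each line gives the 250 bases up to the start, 5′ to 3′, with half-sites in capitals. The upstream start of Cdkn1a (chr17:29090729-29090978, plus strand) had 2 half-sites, beginning 73 and 51 bases before the start, and its downstream start (chr17:29093519-29093768) had no match in this window. Ccng1 (chr11:40755287-40755536, minus strand) had 1 half-site 185 bases before its start, and Mdm2 (chr10:117710759-117711008, minus strand) had 1 at 186 bases. Bax and a second start of Sesn1 also held a match, while the windows of Phlda3, Cdkn1b and the first start of Sesn1 held none.
Cdkn1a, upstream start: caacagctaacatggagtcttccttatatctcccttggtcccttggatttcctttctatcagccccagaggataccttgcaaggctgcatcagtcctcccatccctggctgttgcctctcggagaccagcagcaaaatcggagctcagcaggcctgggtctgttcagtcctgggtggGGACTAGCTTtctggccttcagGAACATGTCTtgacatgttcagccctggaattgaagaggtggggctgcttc
Ccng1: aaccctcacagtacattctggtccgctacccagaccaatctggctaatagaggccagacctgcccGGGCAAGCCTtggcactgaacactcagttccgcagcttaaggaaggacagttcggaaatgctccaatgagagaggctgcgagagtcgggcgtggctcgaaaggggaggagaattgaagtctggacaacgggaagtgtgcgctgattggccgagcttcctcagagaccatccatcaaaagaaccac
Mdm2: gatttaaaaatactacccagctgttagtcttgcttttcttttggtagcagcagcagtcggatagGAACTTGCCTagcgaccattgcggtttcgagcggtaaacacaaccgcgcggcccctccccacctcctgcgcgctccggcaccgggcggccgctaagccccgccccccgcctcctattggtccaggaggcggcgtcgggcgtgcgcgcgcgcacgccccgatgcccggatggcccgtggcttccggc
A match is a description of these letters and not a bound site. Zmat3 and Trp53inp1 are named only.

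The 6 libraries held 7068 to 9795 cell barcodes and 54426522 to 70741809 unique molecular identifiers (UMIs, 1 per captured transcript). After filters and removal of 5.64 to 7.81% of the cells of a library as doublets, 46876 cells fell into 35 clusters, of which 33 were named from marker genes. Pairs of libraries shared 13 to 29 barcodes. Sevoflurane 1 stood apart: Xist was at 1397 CPM (UMIs of a gene scaled to a fixed total per library) there and at 0.533 to 1.21 CPM in the other 5 libraries, and Ddx3y was at 0.282 CPM against 44.1 to 57.9 CPM, so Sevoflurane 1 has the pattern of a female and the others that of males. It also had the fewest endothelial cells. In every class tested, the 10 choroid plexus markers were lower in the Sevoflurane libraries, for example 31.8 to 39.4 CPM in Sevoflurane neurons and 78.8 to 325 CPM in Control neurons, together with 5 choroid plexus cells in the Sevoflurane libraries and 184 in the Control libraries. The part of that difference in the results was not tested. UMI counts were summed per library and class, and the 7 classes that reached 20 cells in each of the 6 libraries were compared with edgeR, with p-values adjusted over all genes tested in the class. A gene was called at an adjusted p under 0.05.

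Cdkn1a was above all a transcript of endothelial cells, the lining of the vessels. That class held 42.0% of all Cdkn1a UMIs in the Sevoflurane libraries and 43.3% in the Control libraries, with 1.30% and 1.48% of the cells. Its level there was 633, 374 and 422 CPM in Sevoflurane libraries 1 to 3, against 156, 142 and 192 CPM in Control libraries 1 to 3. Every Sevoflurane library lay above every Control library, as for 9.46% of all genes tested in this class, and the log2 fold change, sevoflurane over control, was 1.52 ± 0.22 (SE). These sums rest on 595 Cdkn1a UMIs in 328 cells in the Sevoflurane libraries and on 233 UMIs in 322 cells in the Control libraries. Over 7 alternative settings the log2 fold change lay between 1.46 and 1.70, and with each library left out in turn between 1.30 and 1.67.

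In the other classes Cdkn1a was scarce. Oligodendrocytes averaged 29.6 ± 13.3 CPM in the Sevoflurane libraries and 8.71 ± 4.68 CPM in the Control libraries (SD, n = 3 each, as for all means here), ependymal cells 15.3 ± 4.14 and 11.2 ± 8.52 CPM, astrocytes 10.7 ± 6.60 and 6.04 ± 3.22 CPM, microglia 9.54 ± 5.52 and 6.07 ± 3.82 CPM, oligodendrocyte precursors 6.22 ± 1.68 and 2.59 ± 3.40 CPM, and neurons 2.57 ± 0.464 and 1.28 ± 0.250 CPM. Endothelial cells stood above every other class in every library. From oligodendrocytes down to the precursors, neighbours in this order overlapped within each group, and in the Control libraries ependymal cells averaged above oligodendrocytes. Neurons were lowest, and in the Control libraries their range overlapped that of the precursors. Cajal-Retzius cells had 0 Cdkn1a UMIs in 87 Sevoflurane and 97 Control cells, and 0 of 184 cells allows a share of up to 1.63% with a UMI. The numbers of UMIs in precursors (14 in Sevoflurane, 4 in Control), microglia (16 and 8) and ependymal cells (18 and 8) were below the count filter, and no test was made there.

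**Figure D1:**
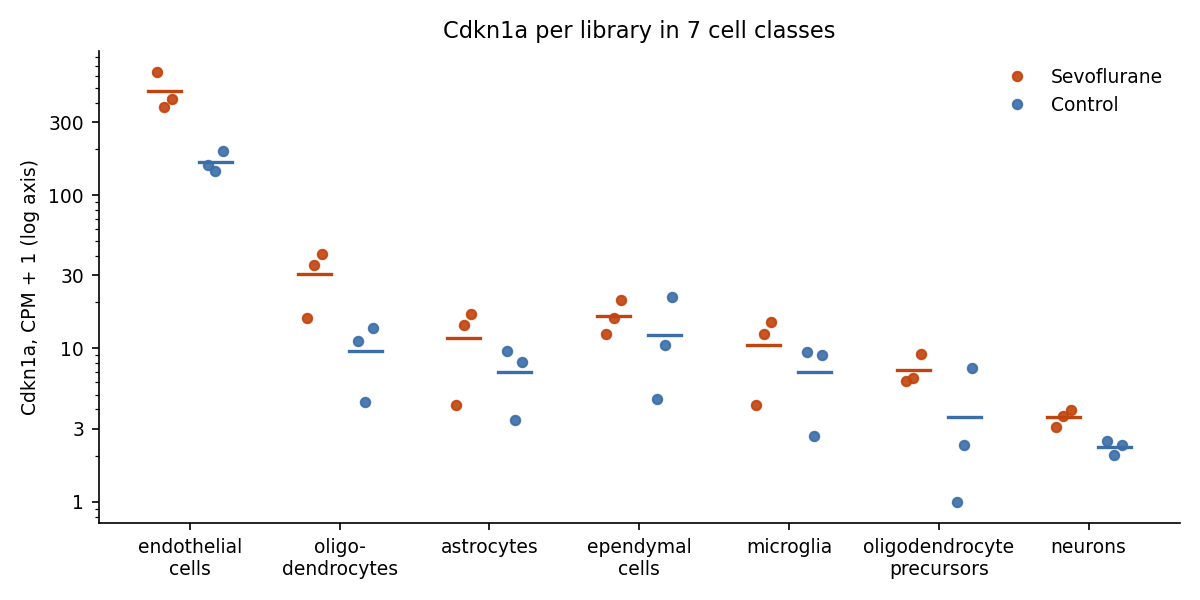
Cdkn1a in CPM + 1 on a log axis for each library (points) and the group mean (bars) in 7 cell classes, Sevoflurane in orange and Control in blue. Endothelial cells are at 374 to 633 CPM in the Sevoflurane libraries and at 142 to 192 CPM in the Control libraries, and neurons are lowest, at 2.08 to 2.99 CPM and 1.01 to 1.5 CPM.

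Within the endothelium the Cdkn1a transcripts were concentrated in a fraction of the cells. A Cdkn1a UMI was present in 69.0, 48.3 and 46.5% of the endothelial cells of Sevoflurane libraries 1 to 3, against 35.8, 51.4 and 32.3% in Control libraries 1 to 3, and these shares overlapped. With each cell thinned to 1000 UMIs, which removes differences in depth, the shares were 43.9, 23.0 and 16.2% in the Sevoflurane libraries, against 9.49, 15.7 and 7.78% in the Control libraries. Thinned, every Sevoflurane share lay above every Control share, and the nearest pair, Sevoflurane 3 and Control 2, were 16.2 and 15.7%. Cells with at least 3 Cdkn1a UMIs held 83.7, 72.4 and 80.3% of the endothelial Cdkn1a UMIs in the Sevoflurane libraries and 40.4, 33.9 and 65.8% in the Control libraries. The highest cell had 16, 16 and 25 UMIs in the Sevoflurane libraries and 6, 4 and 12 in the Control libraries. The median depth over all endothelial cells was 2925.5 UMIs in the Sevoflurane group and 3254 UMIs in the Control group.

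The endothelial class was defined by its own markers, with all 12 detected and a summed level of 10400 to 12100 CPM in the Sevoflurane libraries and 11600 to 14600 CPM in the Control libraries. The 8 pericyte markers reached 4590 to 5000 CPM and 4480 to 6620 CPM in the same cells, and Rgs5 was among the leading genes of the class. Both ranges overlapped between the groups. The 5 erythrocyte markers scored second for this class, and Hbb-bs was also among its leading genes. They were at 3130 to 4870 CPM in the Sevoflurane libraries and 1000 to 6520 CPM in the Control libraries, with overlap. The fibroblast list (8 of 8 markers detected) was at 69.2 to 110 CPM in the Sevoflurane libraries and 117 to 276 CPM in the Control libraries, and the Cajal-Retzius list (4 of 5 detected) at 32.3 to 98.0 CPM and 173 to 195 CPM. Fibroblasts held 51.1 Cdkn1a UMIs per 1000 cells in the Sevoflurane libraries and 38.8 in the Control libraries, where endothelial cells held 1810 and 724.

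**Figure D2:**
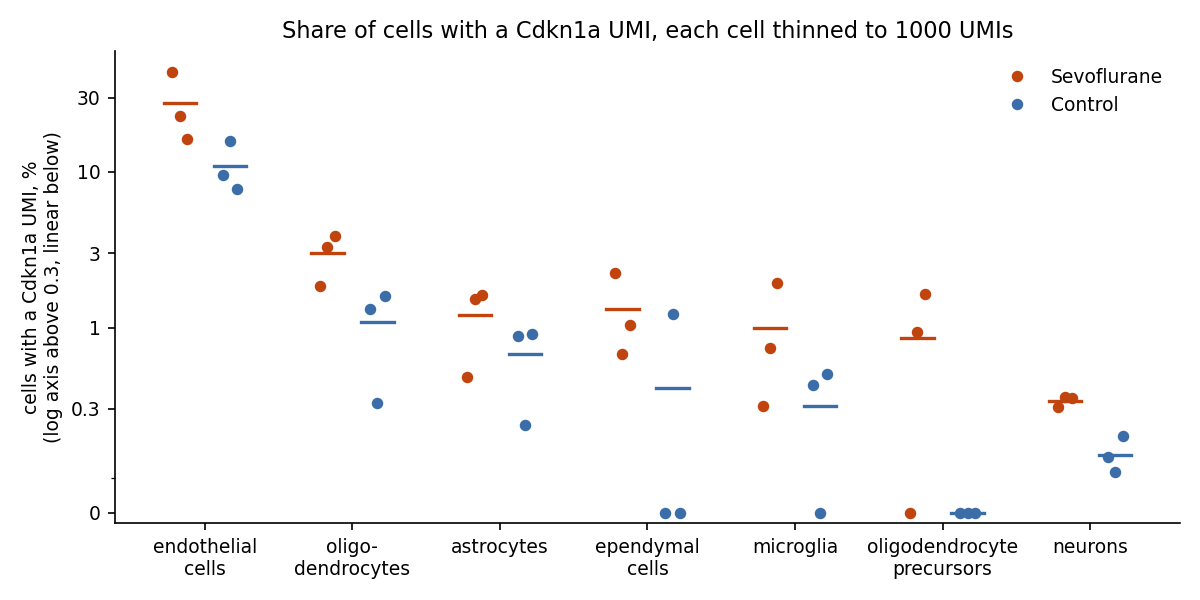
Share of cells with at least 1 Cdkn1a UMI after each cell was thinned to 1000 UMIs, per library (points) with group means (bars); the axis is logarithmic above 0.3% and linear below. Endothelial cells reach 16.2 to 43.9% in the Sevoflurane libraries and 7.78 to 15.7% in the Control libraries, and the neuronal shares are all at or below 0.356%.

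In neurons Cdkn1a was at 2.08, 2.65 and 2.99 CPM in Sevoflurane libraries 1 to 3, against 1.5, 1.01 and 1.34 CPM in Control libraries 1 to 3. The groups did not overlap, where 13.1% of all genes tested in neurons lay higher without overlap, and the log2 fold change was 1.01 ± 0.21 (SE). The level was low: 412 UMIs in 15682 Sevoflurane neurons and 166 UMIs in 13278 Control neurons. A UMI was present in 1.8, 2.43 and 3.30% of neurons in the Sevoflurane libraries and in 1.48, 0.948 and 1.27% in the Control libraries. Thinned to 1000 UMIs per cell, the shares were 0.309, 0.356 and 0.355% in the Sevoflurane libraries and 0.162, 0.119 and 0.222% in the Control libraries. No class is known to lack Cdkn1a, so the neuronal share was set beside other classes with few Cdkn1a UMIs. Thinned shares in microglia averaged 0.996% in the Sevoflurane libraries and 0.311% in the Control libraries, with median depths of 1946 and 1994 UMIs against 8326.5 and 8953.5 in neurons. The thinned share was 0 in Control 2 microglia and in the precursors of every Control library, in 136 to 197 precursors each, and lay below the neuronal share there. On average the thinned neuronal share did not exceed the microglial one in either group. As counted, the neuronal share averaged 2.51% in the Sevoflurane and 1.23% in the Control libraries, above 1.94% and 0.994% in microglia. Thinning cuts the deeper neurons more, so the order of the 2 classes depends on depth. No expression is read from either share. Free RNA in droplets can give UMIs to cells that do not express a gene. Per 1000 cells, Cdkn1a gave 26.3 UMIs in Sevoflurane and 12.5 in Control neurons, a ratio of 2.10. The same ratio was 3.51 in oligodendrocytes, 2.69 in oligodendrocyte precursors, 2.50 in endothelial cells, 2.27 in astrocytes, 1.69 in microglia, 1.37 in ependymal cells, 1.32 in fibroblasts and 1.21 in the unnamed cells.

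In neurons, marker lists of several other cell types also differed between the groups. The 12 endothelial markers, all detected, summed to 35.6 to 43.9 CPM in Sevoflurane neurons and 28.7 to 35.3 CPM in Control neurons, without overlap. The 7 ependymal markers were at 12.5 to 16.8 and 8.89 to 11.5 CPM, and the 12 astrocyte markers at 565 to 625 and 633 to 686 CPM. The 5 B cell markers were at 2.95 to 3.18 and 0.775 to 2.33 CPM, and the 5 neutrophil markers at 0.458 to 0.788 and 0.189 to 0.298 CPM. The choroid plexus list was lower, as given above, and the ranges of the other lists overlapped. The part of free RNA or of endothelial RNA in the neuronal Cdkn1a value was not tested. Leaving out the 3 neuron clusters whose shares differed most between the groups gave a log2 fold change of 1.02. The first version of cluster naming, changed after it had been seen, left 3 neuron clusters unnamed and gave 0.92. The main neuron class rests on the changed version, and both alternatives were added after seeing the data.

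The neuronal Cdkn1a UMIs were spread over 5 subclasses named from markers, and these values, part of those that chose the gene, are given as a description. CA1-like neurons were at 2.30, 2.53 and 2.71 CPM in the Sevoflurane libraries, against 1.09, 0.628 and 0.305 CPM in the Control libraries, a ratio of means of 3.73. CA3-like neurons were at 1.46, 1.93 and 2.26 CPM against 0.154, 0.410 and 1.16 CPM, a ratio of 3.27. These 2 pyramidal subclasses had the lowest Control levels, from 11 and 20 UMIs in CA3-like and CA1-like neurons.
Retrohippocampal-like neurons were at 3.12, 3.11 and 4.76 CPM in the Sevoflurane libraries, against 2.40, 1.12 and 1.89 CPM in the Control libraries, and GABAergic-like neurons at 2.50, 3.63 and 3.01 CPM, against 1.44, 2.33 and 1.28 CPM. Dentate granule-like neurons, the most numerous subclass, were at 1.44, 2.88 and 2.27 CPM, against 1.52, 0.899 and 1.55 CPM, and the groups overlapped because Sevoflurane 1 fell within the Control range. Differences between subclasses were not tested.

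**Figure D3:**
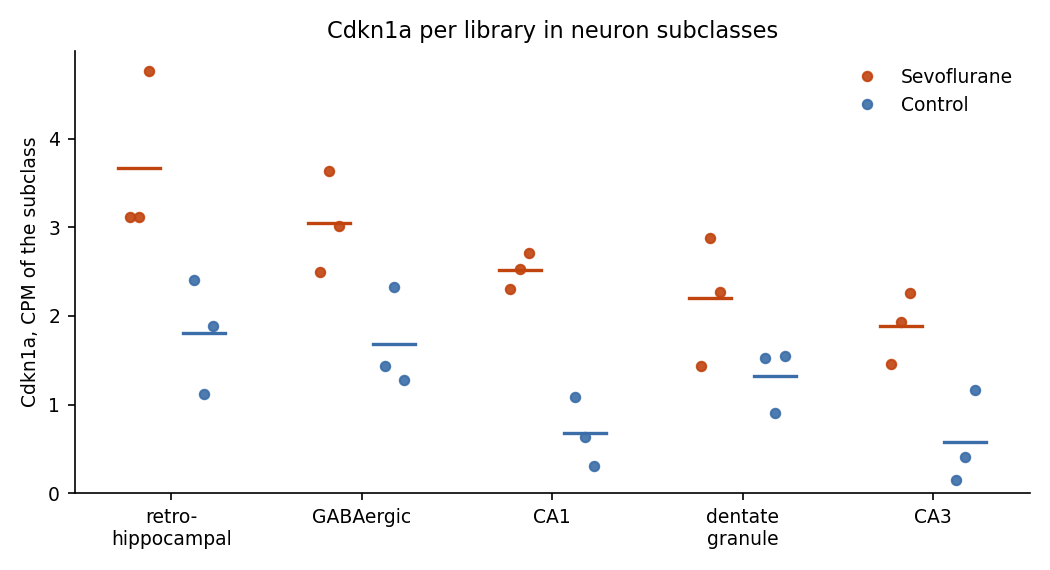
Cdkn1a in CPM of the subclass for each library (points) with group means (bars) in 5 marker-named neuron subclasses. CA1-like and CA3-like neurons have ratios of means of 3.73 and 3.27, and the dentate granule-like libraries overlap between the groups.

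In neurons none of the 8 members other than Cdkn1a was called. By edgeR 0 of the 8 were called, where 4.16% of all 18856 genes tested were called in either direction and 1.52% as higher. None had an unadjusted p under 0.05, and DESeq2 called 0 of the 8. Their log2 fold changes ran from -0.16 to 0.15 with SEs of 0.06 to 0.25, and their median of 0.08 stood beside 0.021 over all genes tested. Mdm2, which feeds back on p53, was at 48.9, 46.3 and 50.3 CPM in Sevoflurane neurons, against 44.7, 45.5 and 47.8 CPM in Control neurons (log2 fold change 0.08 ± 0.06 SE, edgeR adjusted p = 0.516). The ranges overlapped, on 7769 Sevoflurane and 6051 Control UMIs. Sesn1 was at 89.6, 92.4 and 108 CPM, against 108, 111 and 105 CPM (-0.16 ± 0.08, adjusted p = 0.298). Its 2 lowest libraries were Sevoflurane 1 and 2, and Sevoflurane 3 lay within the Control range.

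Ccng1, Zmat3, Trp53inp1, Phlda3 and Bax overlapped between the groups in neurons, with log2 fold changes of -0.06 ± 0.09, 0.08 ± 0.07, 0.10 ± 0.11, 0.07 ± 0.25 and 0.01 ± 0.08 (SE). Bax, for example, was at 22.9, 22.0 and 19.1 CPM in the Sevoflurane libraries, against 21.6, 21.4 and 20.6 CPM in the Control libraries. Only Cdkn1b separated the groups on these values, which are scaled between libraries (TMM). It was at 6.14, 6.25 and 5.83 CPM in the Sevoflurane libraries, against 5.30, 5.48 and 5.64 CPM in the Control libraries. Its log2 fold change of 0.15 ± 0.10 was not called (adjusted p = 0.445), where 13.1% of all genes tested in neurons lay higher without overlap. Without that scaling Mdm2 was also higher without overlap, at 48.7 to 52.7 CPM in the Sevoflurane and 42.7 to 46.4 CPM in the Control libraries. So were Zmat3 (30.4 to 32.2 and 24.9 to 28.9 CPM) and Trp53inp1 (8.28 to 10.5 and 7.71 to 8.01 CPM). The share of all genes was not computed on unscaled values.

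In endothelial cells no other member was called either, at lower counts. By edgeR 0 of the 6 further members tested there were called, where 2.25% of all 7781 genes tested were called, with 0 of the 6 under an unadjusted p of 0.05 and 0 called by DESeq2. The log2 fold changes ran from -0.33 to 0.46 with SEs of 0.23 to 0.33. Differences within these errors were not detectable at this depth, and differences larger than their SE could also go uncalled, as for Mdm2. Mdm2 was at 56.6, 82.7 and 76.5 CPM in the Sevoflurane libraries, against 46.4, 50.7 and 68.4 CPM in the Control libraries (0.46 ± 0.26, adjusted p = 0.486), and Sevoflurane 1 lay within the Control range. Ccng1 was at 15.4, 27.6 and 28.7 CPM, against 30, 32.9 and 36.8 CPM (-0.33 ± 0.33, adjusted p = 0.764). Every Sevoflurane library lay below every Control library for Ccng1, on 36 Sevoflurane and 47 Control UMIs, and 18.6% of all genes tested in this class had no overlap.
Trp53inp1 was at 61.7, 161 and 201 CPM in Sevoflurane endothelium, against 157, 106 and 158 CPM in Control endothelium (0.12 ± 0.28, adjusted p = 0.917). Sesn1 was at 154, 287 and 315 CPM, against 297, 220 and 239 CPM (0.05 ± 0.23, adjusted p = 0.968). For both, Sevoflurane 1 was the lowest of the 6 libraries and the groups overlapped. Cdkn1b and Bax had log2 fold changes of 0.10 ± 0.25 and 0.00 ± 0.28. Phlda3 had 23 UMIs in the Sevoflurane and 6 in the Control libraries and Zmat3 had 30 and 36, and neither passed the count filter.

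Endothelial cells with a Cdkn1a UMI had more Trp53inp1 than those without in 5 of the 6 libraries, with a median ratio of 1.40. Cdkn1b and Bax were higher in 4 libraries and the other members in at most 3, and Mdm2 was higher in 2, with a median ratio of 0.849. The endothelial cells with a Cdkn1a UMI were deeper, with medians of 4181 to 5781 UMIs against 1947 to 3954.5 UMIs in cells without one. The part of depth in these ratios was not tested. In neurons with a Cdkn1a UMI, Trp53inp1 was higher in 3 of the 6 libraries (median ratio 1.01), and no member in more than 3. Trp53inp1 was higher in 3 libraries in dentate granule-like neurons (0.996) and in 1 in oligodendrocytes (0.61), where Bax was higher in 4 (1.44).

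**Figure D4:**
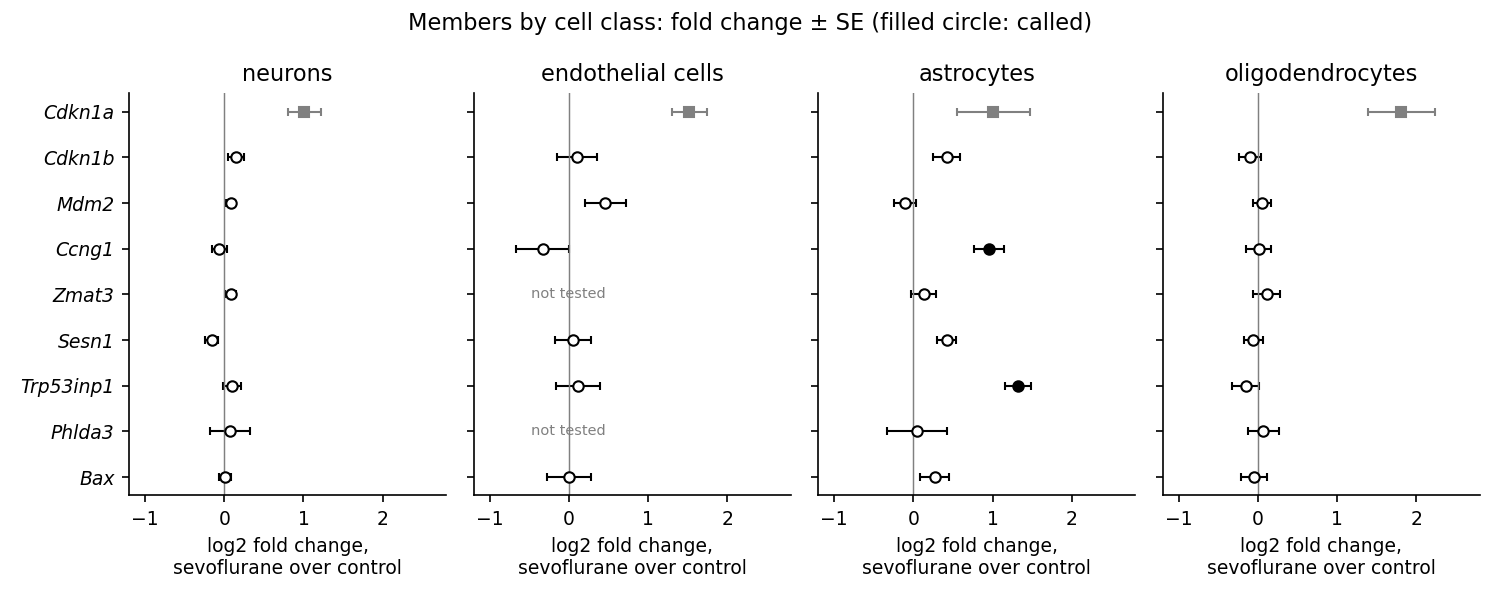
Log2 fold change, sevoflurane over control, with its SE for the 9 members in neurons, endothelial cells, astrocytes and oligodendrocytes. Cdkn1a (grey squares) is above 0 in all 4 classes, and of the other members (circles) Trp53inp1 and Ccng1 in astrocytes are the 2 that were called (filled).

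Astrocytes, the glial cells that feed and buffer neurons, were the class in which other members changed. Trp53inp1 and Ccng1 rose there, 2 of the 8 members, where 2.06% of all 12329 genes tested in astrocytes were called and 0.892% were called as higher. Trp53inp1 was at 107, 94.3 and 136 CPM in Sevoflurane astrocytes, against 43.9, 40.3 and 52.5 CPM in Control astrocytes. The lowest Sevoflurane library lay above the highest Control library, and the log2 fold change was 1.32 ± 0.16 (SE, edgeR adjusted p = 0.000626), on 691 and 288 UMIs. The call held under all 7 alternative settings and without each library in turn, with adjusted p up to 0.0108 and log2 fold changes of 1.14 to 1.45. Ccng1 was at 33.6, 36.4 and 50.5 CPM, against 22.0, 18.9 and 22.4 CPM, again without overlap (0.96 ± 0.19, adjusted p = 0.0168). This call was less secure, on 252 and 134 UMIs. It was lost without Control 1 (adjusted p = 0.0574), Control 2 (0.122), Control 3 (0.0615) or Sevoflurane 3 (0.0681), and with each cell classed on its own markers (0.0795), while its log2 fold change stayed between 0.75 and 1.05. DESeq2 called the same 2 members.

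A further pair of members separated the groups in astrocytes without being called. Sesn1 was at 272, 238 and 271 CPM in the Sevoflurane libraries, against 189, 189 and 207 CPM in the Control libraries (0.42 ± 0.12, adjusted p = 0.0999). Cdkn1b was at 33.6, 32.9 and 28.0 CPM, against 23.9, 22.6 and 23.5 CPM (0.42 ± 0.17, adjusted p = 0.252). In all, 4 of the 8 members lay higher in every Sevoflurane library, where 9.2% of all genes tested in astrocytes did.
The remaining members overlapped in astrocytes. Bax, Zmat3, Phlda3 and Mdm2 had log2 fold changes of 0.27 ± 0.18, 0.13 ± 0.16, 0.05 ± 0.38 and -0.11 ± 0.14. Cdkn1a itself was at 3.28, 13.2 and 15.8 CPM in Sevoflurane astrocytes, against 8.59, 2.42 and 7.11 CPM in Control astrocytes (1.01 ± 0.46, adjusted p = 0.321). Sevoflurane 1, with 107 CPM of Trp53inp1, was the second lowest of the 6 libraries for Cdkn1a, on 4 astrocytes with a Cdkn1a UMI. For Cdkn1a, Ccng1 and Trp53inp1 alike, Sevoflurane 3 was highest and Control 2 lowest. Mdm2, at 50.8, 47.8 and 58.0 CPM, against 53.9, 57.6 and 57.9 CPM, did not separate the groups.

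The 12 astrocyte markers, all detected, summed to 11400 to 13500 CPM in Sevoflurane astrocytes and 13700 to 13900 CPM in Control astrocytes. The 7 ependymal markers were at 33.9 to 39.0 CPM and 20 to 27.2 CPM, and the 6 neuroblast markers at 40.4 to 47.9 and 30.6 to 34.9 CPM. Ependymal cells themselves carried 44.6 to 87.3 CPM of Trp53inp1 in the Sevoflurane libraries and 48.0 to 87.0 CPM in the Control libraries, below the 94.3 to 136 CPM of Sevoflurane astrocytes. Astrocytes numbered 429, 733 and 753 in the Sevoflurane libraries and 696, 804 and 675 in the Control libraries.

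**Figure D5:**
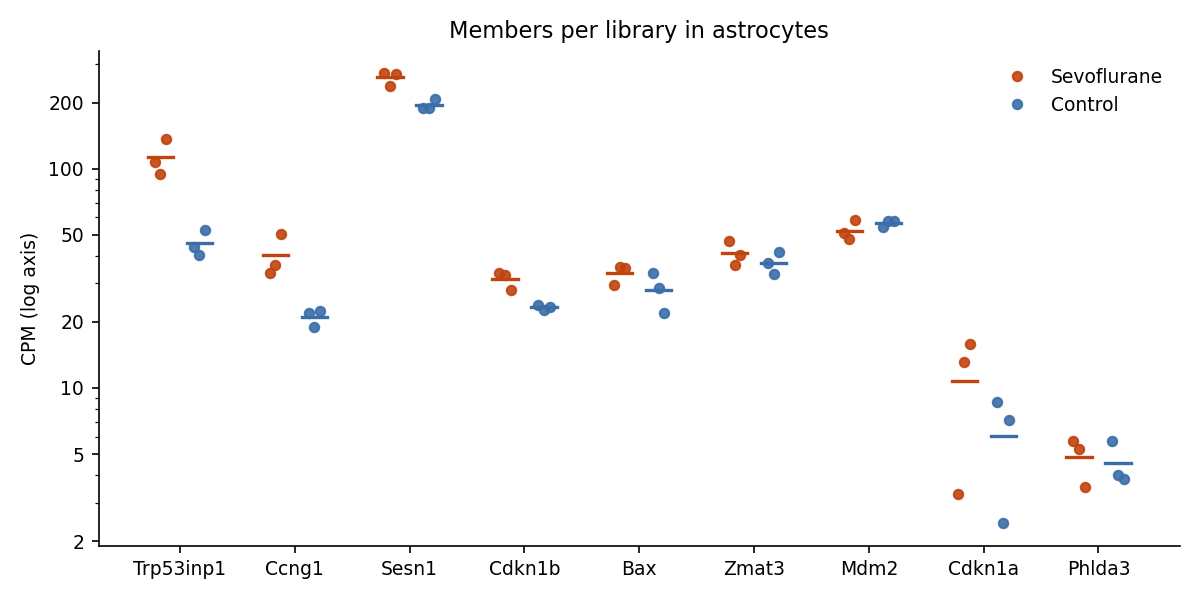
The 9 members in astrocytes, in CPM on a log axis, per library (points) with group means (bars). Trp53inp1, Ccng1, Sesn1 and Cdkn1b do not overlap between the groups, and the first 2 were called.

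Whether the astrocyte changes differed from those of other classes was tested with the library as a block, in a comparison added after seeing the data. Trp53inp1 changed more in astrocytes than in neurons, by 1.22 ± 0.15 on the log2 scale (edgeR adjusted p = 1.18e-05), than in endothelial cells, by 1.21 ± 0.27 (adjusted p = 0.0166), and than in oligodendrocytes, by 1.44 ± 0.20 (adjusted p = 0.00107). The difference from endothelial cells was lost without Control 1 (adjusted p = 0.111) or Control 3 (0.088), and the other 2 held without each library in turn. Against neurons the change was also larger in astrocytes for Ccng1 (1.05 ± 0.21, adjusted p = 0.00351) and Sesn1 (0.58 ± 0.12, adjusted p = 0.00371), and that of Ccng1 was lost without Sevoflurane 3 (0.0657). In that comparison 3 of the 8 members other than Cdkn1a were called, where 1.91% of all genes tested were. Against endothelial cells and oligodendrocytes the share called over all genes was 0.966% and 0.845%, and Trp53inp1 was the 1 member called in each. Cdkn1a changed by -0.97 ± 0.36 in astrocytes relative to oligodendrocytes, which was not called (adjusted p = 0.298).

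In oligodendrocytes, the myelin-forming cells, Cdkn1a was at 14.7, 34.1 and 40.1 CPM in the Sevoflurane libraries, against 10.1, 3.47 and 12.5 CPM in the Control libraries. The groups did not overlap, where 8.31% of all 12436 genes tested lay higher without overlap, and the log2 fold change of 1.81 ± 0.42 was not called (adjusted p = 0.0937). Without Sevoflurane 1, the lowest of its group, the adjusted p was 0.00711, and with no filter on low counts it was 7.31e-13, while the other alternatives gave 0.0829 to 0.311. The share of oligodendrocytes with a Cdkn1a UMI was 2.95, 7.52 and 9.80% in the Sevoflurane libraries and 2.33, 0.804 and 2.60% in the Control libraries, and 1.84, 3.27 and 3.89% against 1.32, 0.329 and 1.59% after thinning. The 12 endothelial markers in oligodendrocytes overlapped between the groups, at 41.7 to 88.7 CPM in the Sevoflurane and 50.4 to 85.8 CPM in the Control libraries, and the 7 ependymal markers did not, at 29.2 to 44.4 and 25.3 to 28.7 CPM. The part of the ependymal markers in the Cdkn1a value was not tested. By edgeR 0 of the other 8 members were called, where 0.499% of all genes were, with 0 under an unadjusted p of 0.05 and 0 called by DESeq2. Their log2 fold changes ran from -0.15 to 0.11, and Trp53inp1, at 16.1, 16.6 and 18.5 CPM against 18.4, 18.0 and 20.7 CPM, overlapped.

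No member was called in the remaining glial classes, by edgeR or by DESeq2, and none had an unadjusted p under 0.05. In oligodendrocyte precursors 7 of the 8 were tested and ran from -0.28 to 0.32, in microglia 7 ran from 0.04 to 0.63, and in ependymal cells 6 ran from -0.62 to 0.24 on the log2 scale, where 0.916, 0.36 and 0.567% of all genes tested were called. Microglial Ccng1 lay without overlap at 23.1, 34.5 and 20.7 CPM in the Sevoflurane libraries, against 14.9, 18.4 and 18.7 CPM in the Control libraries (0.57 ± 0.38, adjusted p = 0.709), where 6.45% of all genes tested there lay higher without overlap. Ependymal Mdm2 was at 186, 210 and 177 CPM, against 154, 166 and 169 CPM (0.24 ± 0.21, adjusted p = 0.771), where 7.07% did.

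Over all cells of a library, Cdkn1a was at 5.11, 7.99 and 10.7 CPM in the Sevoflurane libraries, against 4.26, 2.14 and 3.76 CPM in the Control libraries. Mdm2 was at 53.4 to 56.7 CPM in the Sevoflurane and 47.7 to 50.1 CPM in the Control libraries, also without overlap. Zmat3 (30.6 to 31.5 and 25.0 to 28.9 CPM) and Cdkn1b (9.49 to 10.5 and 8.7 to 9.44 CPM) did not overlap either. The ranges of Ccng1, Sesn1, Trp53inp1, Phlda3 and Bax overlapped. These values are not TMM-scaled and were not tested, and the share of all genes without overlap was not computed. For Cdkn1a, Sevoflurane 3 was the highest library and Control 2 the lowest in neurons, oligodendrocytes, astrocytes and microglia, as in the whole libraries. In endothelial cells the highest was Sevoflurane 1, in precursors the lowest was Control 1, and in ependymal cells the highest was Control 3.

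A list of 27 further p53 targets, chosen from textbook knowledge, gave 1 call over the 7 classes. This list and those that follow were chosen with earlier results of these data known. Their counts of calls beside the share of all genes are therefore a description. Pmaip1, which encodes the apoptosis activator Noxa, rose in endothelial cells, at 46.3, 152 and 157 CPM in the Sevoflurane libraries, against 44.9, 55.8 and 15.8 CPM in the Control libraries (1.70 ± 0.37, adjusted p = 0.0252). Sevoflurane 1 lay within the Control range, and the call was lost without Control 1 (0.108), Control 3 (0.0903), Sevoflurane 2 (0.122) or Sevoflurane 3 (0.0924). The other 13 targets tested in endothelium were not called, and 2.25% of all genes tested there were called. The median over the list was -0.15, beside 0.004 over all genes tested. In neurons 0 of 25 were called by edgeR, with 8 under an unadjusted p of 0.05 and 1, Btg2, called by DESeq2. Over all 18856 genes tested in neurons, edgeR called 4.16%, 3928 had an unadjusted p under 0.05 and DESeq2 called 1512. Btg2, an antiproliferative early-response gene, was at 21.8, 18.0 and 12.7 CPM in Sevoflurane neurons and 9.86, 8.42 and 12.2 CPM in Control neurons (0.79 ± 0.21, edgeR adjusted p = 0.0806). The list median in neurons was 0.08, beside 0.021 over all genes. In astrocytes 0 of 17 were called, with 6 under an unadjusted p of 0.05 and 0 by DESeq2, and the median was 0.17 beside 0.009. Over all 12329 genes tested in astrocytes, edgeR called 2.06% and 1845 had an unadjusted p under 0.05. In the other 4 classes 0 were called by either tool, with at most 1 under an unadjusted p of 0.05.

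The p53 gene itself, Trp53, was not called in any of the 6 classes in which it was tested. It was at 13.2, 13.6 and 12.3 CPM in Sevoflurane neurons, against 13.8, 14.7 and 13.6 CPM in Control neurons (-0.10 ± 0.08, adjusted p = 0.497), at 10.3, 39.0 and 36.9 CPM against 24.0, 68.4 and 42.1 CPM in endothelial cells (-0.37 ± 0.41, adjusted p = 0.793), and at 21.3, 25.5 and 24.9 CPM against 28.2, 36.3 and 25.7 CPM in astrocytes (-0.32 ± 0.19, adjusted p = 0.454). p53 is largely controlled at the protein level, which these data do not measure. Of the 12 regulators and relatives of p53, all tested in neurons, the 1 call over all classes was Trp63, a p53 family member, in neurons. Of all genes tested in neurons 4.16% were called, and 1.52% were called as higher. Trp63 was at 2.96, 2.59 and 2.15 CPM in the Sevoflurane libraries and 0.836, 1.15 and 1.37 CPM in the Control libraries (1.19 ± 0.22, adjusted p = 0.031). The call was lost without Control 1 (0.0879), Control 2 (0.107), Control 3 (0.0643), Sevoflurane 1 (0.0688) or Sevoflurane 2 (0.0747).
The other cyclin-dependent kinase inhibitors and the cell cycle genes gave no call in any class by edgeR. Of the 5 inhibitors, at most 3 were tested in a class, and Cdkn1c, which encodes p57, was at 0.184, 0.373 and 0.368 CPM in Sevoflurane neurons, against 0.710, 0.443 and 0.802 CPM in Control neurons (-1.07 ± 0.36, adjusted p = 0.143), the 1 inhibitor under an unadjusted p of 0.05. Cdkn2a, the senescence-linked p16 and p19 gene, had 27 UMIs in Sevoflurane and 21 in Control neurons and 0 in astrocytes and oligodendrocytes of both groups. Of the 19 cell cycle genes, 0 of 17 tested in neurons were called, with 2 under an unadjusted p of 0.05 and 0 by DESeq2, and in the other classes 0 to 2 had an unadjusted p under 0.05. Over all 18856 genes tested in neurons, 3928 had one. The 1 DESeq2 call among them in any class was Ccnd3 in oligodendrocytes.

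Genes that glucocorticoids induce, of which Cdkn1a can be one, gave 9 calls over the 7 classes, in a list of 18 genes. In endothelial cells 3 of 16 tested rose, where 2.25% of all genes were called: Sgk1, a kinase of ion transport (1.20 ± 0.24, adjusted p = 0.014), and the metallothioneins Mt1 (1.05 ± 0.24, adjusted p = 0.028) and Mt2 (1.28 ± 0.23, adjusted p = 0.00623), and the list median was 0.50, beside 0.004 over all genes tested. In astrocytes 4 of 18 rose, where 2.06% of all genes were called: Pdk4, a brake on glucose oxidation (1.39 ± 0.15, adjusted p = 0.000277), Ddit4, an mTORC1 inhibitor (1.08 ± 0.19, adjusted p = 0.00701), Arl4d (1.86 ± 0.29, adjusted p = 0.00432) and Map3k6 (2.35 ± 0.39, adjusted p = 0.00606), and the median was 0.52, beside 0.009 over all genes. Pdk4 was at 61.5, 75.5 and 65.5 CPM in Sevoflurane astrocytes, against 26.3, 26.6 and 24.6 CPM in Control astrocytes. In neurons edgeR called 1 of 18, where 4.16% of all genes were called: Zbtb16, which fell (-0.37 ± 0.08, adjusted p = 0.0464). In neurons 8 of the 18 had an unadjusted p under 0.05, DESeq2 called 5 (Per1, Zbtb16, Errfi1, Mt1 and Mt2), and the list median was 0.18, beside 0.021 over all genes. Of all 18856 genes tested in neurons, 3928 had an unadjusted p under 0.05 and DESeq2 called 1512. In ependymal cells Dusp1 rose, 1 of 11 tested, where 0.567% of all genes were called (2.30 ± 0.48, adjusted p = 0.0192). In oligodendrocytes edgeR called 0 of 17 and DESeq2 called Mt1, where DESeq2 called 148 of all genes. There 9 had an unadjusted p under 0.05, as did 1654 of all 12436 genes tested. The list medians in oligodendrocytes, microglia, precursors and ependymal cells were 0.33, 0.46, 0.23 and 0.45. Over all genes tested they were 0.014, 0.014, 0.009 and 0.005. The calls of Pdk4 and Arl4d held without each library in turn. Without Control 1 the calls of Sgk1 (0.108), Mt1 (0.161), Mt2 (0.0782), Zbtb16 (0.143) and Dusp1 (0.16) were lost, without Control 2 those of Ddit4 (0.0729), Map3k6 (0.0572), Zbtb16 (0.137) and Dusp1 (0.189), and without Control 3 those of Mt1 (0.0655) and Zbtb16 (0.0933). Without Sevoflurane 1 the calls of Zbtb16 (0.075) and Dusp1 (0.0834) were lost, without Sevoflurane 2 those of Sgk1 (0.0542) and Zbtb16 (0.105), and without Sevoflurane 3 that of Mt1 (0.0849). With doublets kept, Zbtb16 (0.0787) and Dusp1 (0.0678) were lost, and Zbtb16 also without the span trend (0.109), without the uneven neuron clusters (0.0714) and with the first version of cluster naming (0.0623).
Genes that tissue dissociation induces were also called in endothelial and ependymal cells. The list of 15 shares Dusp1 with the glucocorticoid list and Btg2 with the p53 targets. In endothelial cells Jund (1.07 ± 0.27, adjusted p = 0.0494) and Klf6 (0.86 ± 0.21, adjusted p = 0.0399) rose, 2 of 10 tested, where 2.25% of all genes were called. In ependymal cells Fos (2.95 ± 0.62, adjusted p = 0.0192), Egr1 (1.69 ± 0.30, adjusted p = 0.00376) and Dusp1 rose, 3 of 8, where 0.567% of all genes were called. Without Control 1 the calls of Jund (0.197), Klf6 (0.137) and Fos (0.16) were lost, without Control 2 those of Klf6 (0.0753), Fos (0.294) and Egr1 (0.0857), and without Control 3 those of Jund (0.185) and Klf6 (0.136). Without Sevoflurane 1 those of Jund (0.112) and Klf6 (0.0786) were lost, and without Sevoflurane 2 those of Jund (0.0542) and Klf6 (0.124). Jund was also lost with doublets kept (0.0639) and with each cell classed on its own markers (0.055). The list medians were 1.47 in ependymal cells, 0.55 in endothelial cells, 0.75 in astrocytes and 0.36 in neurons. Over all genes tested the medians there were 0.005, 0.004, 0.009 and 0.021. In oligodendrocytes, microglia and precursors the list medians were 0.46, 0.06 and -0.14, beside 0.014, 0.014 and 0.009 over all genes tested. In astrocytes 0 of 10 were called by edgeR or DESeq2 and 4 had an unadjusted p under 0.05, as did 1845 of all 12329 genes tested there. In neurons edgeR called 0 of 15, with 6 under an unadjusted p of 0.05 and 3 called by DESeq2 (Fos, Fosb and Btg2). Of all 18856 genes tested in neurons, 3928 had an unadjusted p under 0.05 and DESeq2 called 1512. The part of dissociation in the members' values was not tested.

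Last, genes were ranked by how closely they followed Cdkn1a over the 42 class-by-library values, after centring each class. Among 5391 genes the nearest were Tob2 (r = 0.683), Klf9 (0.678, also on the glucocorticoid list), Ube2f (0.663), Ilk (0.658) and Azin1 (0.654), with r a description across values that share libraries and depth. Of these, Ilk was called in astrocytes (0.78 ± 0.17, adjusted p = 0.0236) and none in neurons or endothelial cells. Among the members, Trp53inp1 had r = 0.218 at rank 1061, Mdm2 0.127 at rank 1745, Sesn1 0.121 at rank 1792, Ccng1 0.053 at rank 2297 and Bax -0.116 at rank 3632. The other 3 members were not tested in all classes and have no rank. Cdkn1a itself was below the count filter in precursors (14 Sevoflurane and 4 Control UMIs), microglia (16 and 8) and ependymal cells (18 and 8). Its values there still enter every r, and the part of counting noise in r was not tested. A low r is therefore not read as a lack of shared change.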

How the data were processed

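Droplet 3′ libraries of 10x Genomics were made from 6 hippocampi. The deposited values are UMI counts, not normalized, for every gene in every cell barcode, and per the file headers the authors' software was Cell Ranger 6.1.1. The submitters' processing notes also name CASAVA 1.8 and Seurat. The genome build of the counts is not given in the sources used here. Gene spans for a trend correction came from GENCODE (GRCm38), with 99.78% of gene identifiers matched.

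Barcodes needed 500 UMIs and 300 genes, with mitochondrial UMIs no higher than 20%. Doublets were marked per library with Scrublet, cells were clustered in scanpy 1.11.5 (2000 variable genes without the members or listed genes, 30 components, resolution 1), and clusters were named from markers. The comparison of leading genes behind the names and the scoring of single cells were each changed once after a first version had been seen, and the first version of the names is given as an alternative. Counts were summed per library and class and tested with edgeR 4.0.16 (R 4.3.3; TMM scaling, filterByExpr, quasi-likelihood test) within each class, with Benjamini-Hochberg adjustment over all genes tested. CPM values are TMM-scaled within a class, except in neuron subclasses and whole libraries. Classes with fewer than 20 cells in a library were not tested. Alternatives were another scaling, DESeq2 1.42.0, no count filter, a replicate block, doublets kept, classes from single cells, removal of a trend with gene span, and each library left out. The members and gene lists (further p53 targets, regulators, inhibitors, cell cycle, glucocorticoid and dissociation genes) were chosen with earlier results of these data known. Named genes are the members, the called genes of each list (at most 6 per class) and the 5 genes most like Cdkn1a; Trp53, Btg2, Cdkn1c, Cdkn2a, Ccnd3, Per1, Errfi1, Fosb, Jund, Klf6, Fos and Egr1 were named after their values were seen. Counting scripts were tested on simulated data. Depth was 54426522 to 70741809 UMIs per library, and shares and floors cover counting error only. The matrices hold called cells, so free RNA was not measured from empty droplets.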

Additional observations from a re-analysis of the deposited data

Results flagged for a closer look

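5 differences between cell classes in the sevoflurane effect passed the test of the difference itself (edgeR, class by group, library as a block, adjusted over all genes), in a comparison added after seeing the data. Over all genes tested 1.91% passed against neurons, 0.966% against endothelial cells and 0.845% against oligodendrocytes. The effect in astrocytes exceeded that in neurons by 1.22 on the log2 scale for Trp53inp1, by 1.05 for Ccng1 and by 0.58 for Sesn1. For Trp53inp1 it also exceeded that in endothelial cells by 1.21 and that in oligodendrocytes by 1.44. The difference of Ccng1 from neurons was lost without Sevoflurane 3 (adjusted p = 0.0657), and that of Trp53inp1 from endothelial cells without Control 1 (0.111) or Control 3 (0.088).

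Ccng1 lay below every Control library in all 3 endothelial Sevoflurane libraries (log2 fold change -0.33 ± 0.33 SE), on 36 Sevoflurane and 47 Control UMIs. In this class 18.6% of all genes tested had no overlap, in either direction. Ccng1 lay above every Control library in astrocytes (0.96 ± 0.19) and in microglia (0.57 ± 0.38), where 9.2% and 6.45% of all genes tested did. It was not called in endothelial cells or microglia (edgeR adjusted p = 0.764 and 0.709). Between astrocytes and endothelial cells the difference of 1.33 ± 0.38 was not called (adjusted p = 0.0889), and between microglia and endothelial cells it was not tested.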

How the results depend on the processing

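The 50 gene-by-class values of the 8 members other than Cdkn1a, 2 of them calls, were recomputed 639 times under the alternatives. In 613 recomputations of uncalled values none became a call, neither call changed direction, and 5 recomputations of Ccng1 in astrocytes lost its call. Counts of called genes over all genes moved more. In neurons 785 genes were called, and 1512 with DESeq2, 158 with a replicate block, 444 without the span trend (241 higher, against 287 of the 785), 294 without the uneven neuron clusters and 289 with the first version of cluster naming, the last 2 added after seeing the data. In endothelial cells 175 were called, and 384 with no filter, 93 with the block and 281 with doublets kept. Astrocytes gave 254, and 623 with no filter and 160 with doublets kept. Oligodendrocytes gave 62, and 148 with DESeq2, 510 with no filter, 28 with the block and 38 without the span trend. Precursors gave 86, and 163 with no filter, 12 with the block, 28 with doublets kept, 46 with classes from single cells and 10 without the span trend (2 higher, against 8 of the 86). Microglia gave 33, and 114 with no filter and 14 with classes from single cells. Ependymal cells gave 41, and 24 with DESeq2, 89 with no filter and 23 with classes from single cells. The cause of these shifts was not tested.

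Leaving out 1 library at a time gave 50 to 463 calls in neurons, 47 to 179 in endothelial cells, 56 to 381 in astrocytes, 3 to 83 in oligodendrocytes, 4 to 94 in precursors, 11 to 61 in microglia and 15 to 74 in ependymal cells. Library numbers did not pair the samples: the 21 correlations of same-numbered libraries lay between -0.206 and 0.025, none above 0.1, so the block is given as a setting only. With the block the list genes Pmaip1 (adjusted p = 0.0758), Mt1 (0.0685), Jund (0.0928) and Klf6 (0.0627) in endothelial cells and Trp63 (0.0814) and Zbtb16 (0.106) in neurons were not called. Counts of 23 to 47 UMIs limit Phlda3, Zmat3 and Ccng1 in endothelial cells, with 6 for Phlda3 in the Control libraries.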
